A study of Mus musculus with 18 samples.

Results

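Activated effector conventional CD4 T cells (Tconv) were described here in the spleens of mice with and without functional Foxp3. The class holds the cells that the authors' deposited annotation calls activated Tconv, leaving out their follicular helper, Irf7, dividing and natural killer T clusters. It took in 2931 of 26652 cells, out of 4897 cells annotated as activated Tconv. The members fell into 3 clusters of the authors, with 1079 cells named tissue-like Tconv, 933 named Tconv_activated_2 and 919 named Th1.

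A conventional CD4 T cell that meets its antigen leaves the resting state, loses lymph node homing receptors such as Ccr7, and gains adhesion and cytoskeletal genes, cytokines and chemokine receptors. Th1 cells are the branch directed by the transcription factor Tbx21, and make Ifng and the chemokine Ccl5. Foxp3 is the defining transcription factor of regulatory T (Treg) cells, which restrain this activation, and male mice without it develop a fatal lymphoproliferative disease in which activated CD4 T cells fill the spleen and other organs.

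TCRβ+ CD4+ splenocytes of male mice were profiled by droplet single-cell RNA-seq with 3′ libraries of 2 chemistries. In the V2 chemistry, 2 samples came from deltaFoxp3 mice (B6 Foxp3DeltaEGFPiCre x ROSA-YFP) and 2 from WT mice (B6 Foxp3-IRES-GFP), all 3 weeks old. In the V3 chemistry, 2 samples came from deltaFoxp3 mice of 3 weeks and 2 from WT mice of 9 weeks, whose line also carries CD45.1, so that genotype and age cannot be told apart between them. The V3 chemistry was also used for 3 mixed bone marrow chimeras, in which deltaFoxp3 cells (with CD45.1/2) and WT cells (with CD45.1) were taken from the same host; the labels give 16 weeks of age and 10 weeks after transplantation. A chimera has Treg cells of WT origin, an intact deltaFoxp3 mouse has no functional ones, and the WT Foxp3 allele carries a GFP reporter in all groups. Sorted WT Tconv and sorted WT Treg cells of 9 weeks, with 2 samples each, stayed out of all comparisons. Both V3 samples of an intact group carry the same hashtag, so each pair may come from 1 mouse, and nothing in the labels says that the V2 samples of a group came from separate mice: the p-values measure the spread between these samples, which may be technical.

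Depth differed between the chemistries. Class cells had a median of 2823 to 3318 UMIs (unique transcript molecules) in the V2 samples and 4705 to 8528 in the V3 samples, and a sample held between 25 and 426 of them outside the sorted Treg cells. UMIs were summed per sample over the class and are given as CPM, counts per 1000000 of that sum. Cre transcripts of the mutant allele, counted over all cells, numbered 12 and 17 UMIs in the V2 deltaFoxp3 samples, 27 and 33 in the V3 deltaFoxp3 samples and 2, 0 and 3 in the deltaFoxp3 cells of chimeras 1, 2 and 3, and 0 in every WT sample. Foxp3 itself did not separate the V2 groups, at 2.11 and 2.34 CPM over all cells in deltaFoxp3 samples and 2.28 and 2.55 CPM in WT samples, so 3′ reads of the gene do not check the mutant label there. In 2 chimera samples, the deltaFoxp3 cells of chimera 2 and the WT cells of chimera 1, the strain entry in the deposited cell table goes against the label, while the CD45.1 and CD45.2 sort entry goes with it; the labels were followed, and leaving those samples out gave 155 called genes between the chimera genotypes, against 147.

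On average, the 4 class markers were higher in each of the 3 clusters than in resting cells. The clusters were made from the expression of these cells, so the levels are a description. Over the samples with enough cells, the memory and activation receptor Cd44 averaged 130 CPM in tissue-like cells, 80.6 in activated_2 cells and 128 in Th1 cells, against 22.7 CPM in the main resting cluster of the authors. S100a4, a calcium-binding protein of effector and memory cells, averaged 2241, 808 and 1850 CPM in the same 3 clusters, against 348 CPM in resting cells, and Itgb1, the integrin β1 chain, 939, 370 and 1041 CPM against 130 CPM. Bhlhe40, a transcription factor of cytokine-producing T cells, averaged 69.8, 47.5 and 87.6 CPM against 20.7 CPM. Cd3e lay between 553 and 965 CPM in all samples of the 3 clusters. The activated_2 cluster was uneven: its median sample had 93.5 CPM of S100a4, below the resting average of 348, while the highest had 3862. The resting cluster was uneven too. Its 4 markers summed to 521 CPM on average, and from 30.5 to 3753 CPM over its 16 samples. The averages thus do not show that activated_2 cells exceeded resting cells within a sample. The 4 markers summed to 3380 CPM in tissue-like, 3107 in Th1 and 1306 in activated_2 cells. Clusters outside the class had 2040 CPM (dividing activated Tconv), 1581 (activated Treg) and 1116 (follicular helper). The 4 markers thus did not set activated_2 cells apart from these clusters. The samples averaged differ between clusters.

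Markers of other cells differed between groups. Cells with a UMI of a B, plasma, myeloid, CD8, erythroid or gamma delta T cell marker made up 17.4% and 32.3% of the class in the V2 deltaFoxp3 samples and 14.2% and 10.0% in the V2 WT samples, and 3.47% to 12.5% in all other groups. Over the 5 erythroid genes, the summed level was 169 and 622 CPM in V2 deltaFoxp3 samples and 220 to 277 CPM in V2 WT samples; no V3 sample passed 19.9 CPM. The authors' tables give the fraction of reads in cells as 0.597 and 0.534 for the V2 deltaFoxp3 libraries and 0.791 and 0.795 for the V2 WT libraries. Without the cells that held such a marker, the counts of changed genes over the whole class stayed within 1.5 times their values; the counts within single clusters were not recomputed.

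Among the leading genes of the tissue-like cluster was Capg, an actin-capping protein, at 354 CPM on average against 106 CPM in the other clusters of the class, and it was higher there in 14 of 14 samples. Ccr4, a chemokine receptor of skin-homing and Th2 cells, averaged 50.9 CPM in tissue-like cells against 9.64 CPM, and the paired membrane genes Tmem176a and Tmem176b, known from Th17 cells, 65.7 and 72.8 CPM against 10.2 and 19.9 CPM. The costimulatory receptor Tnfrsf4 (OX40) averaged 134 CPM against 61.5 CPM. Capg is also on the list of Treg genes used here. The 10 genes of that list, with the deposited Foxp3 count, summed to 707 CPM in tissue-like cells. They summed to 300 CPM in activated_2 and 339 CPM in Th1 cells. Outside the class, the sums were 573 CPM in follicular helper and 1295 CPM in activated Treg cells. These levels describe how the authors' cells were grouped and carry no test. Gata3, the lineage factor of Th2 cells, averaged 160 CPM in tissue-like cells, 89.4 in activated_2 cells and 115 in Th1 cells, and the Th17 cytokine gene Il17a had no UMI in any of the 3 clusters.

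The Th1 cluster carried the programme of its name. Tbx21 averaged 71.9 CPM there and 18.1 CPM in activated_2 cells. Ccl5 averaged 11170 CPM in Th1 cells against 1652 CPM in the other clusters and was higher in 13 of 13 samples, as was Gzmk, a granzyme of memory T cells, at 63.1 against 9.32 CPM. Zeb2, a transcription factor of terminal effector cells, averaged 57.8 against 5.20 CPM and was higher in 12 of 13 samples. The killer receptor chain Klrd1 averaged 100 against 14.4 CPM and was higher in 11 of 13. The 7 CD8 T and NK cell markers were also highest here of the 3 clusters. They summed to 79.5 CPM, against 20.4 in tissue-like and 31.8 in activated_2 cells. Ccr7, the homing receptor lost on activation, was lowest here of the 3 clusters, at 45.3 CPM on average against 99.4 CPM in tissue-like cells.

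The activated_2 cluster was led by genes of resting cells. Igfbp4, a secreted binding protein that marks naive CD4 T cells, averaged 151 CPM against 25.6 CPM in the other clusters, Dapl1, also known from naive T cells, 154 against 36.3 CPM, and Ccr7 206 against 73.8 CPM. The chromatin organiser Satb1 averaged 272 against 106 CPM. These averages hide a split between groups that is described after the shares.

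In intact mice the class took a larger share of the CD4 T cells in deltaFoxp3 spleens. It made up 12.9% and 24.7% of all cells in the V2 deltaFoxp3 samples against 5.995% and 6.36% in the V2 WT samples. In the V3 chemistry it made up 30.5% and 27.2% in deltaFoxp3 samples against 9.09% and 10.51% in WT samples of 9 weeks. Neither pair of groups overlapped. On the log2 scale the share was higher by 1.60 (SE 0.33, adjusted p = 0.00511) in the V2 comparison and by 1.57 (SE 0.28, adjusted p = 0.00195) in the V3 comparison, by edgeR's quasi-likelihood test on numbers of cells; an exact permutation test of 2 samples against 2 cannot reach 0.05, and each gave the smallest p it allows. The V2 call was lost when either WT sample was left out.

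In the chimeras the shares of the genotypes overlapped. The class took 8.85%, 12.9% and 8.24% of deltaFoxp3 cells in chimeras 1, 2 and 3, against 14.5%, 9.35% and 11.8% of WT cells. The difference was -0.25 on the log2 scale (SE 0.22, adjusted p = 0.382; two-sided exact permutation p = 0.4, where 0.1 is the smallest possible). Among deltaFoxp3 cells alone, the class averaged 28.9% ± 2.28 (SD, n = 2) in intact V3 mice and 9.99% ± 2.52 (SD, n = 3) in chimeras, a difference of 1.55 on the log2 scale (SE 0.24, adjusted p = 0.000658). Those 2 groups differ together in age, in the host and in the presence of WT Treg cells. Sorted WT Treg samples held 0 class cells of 331 and 0 of 231. The authors' annotation names every cell of these samples Treg, so the 0 follows from the labels and estimates no share.

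**Figure D1:**
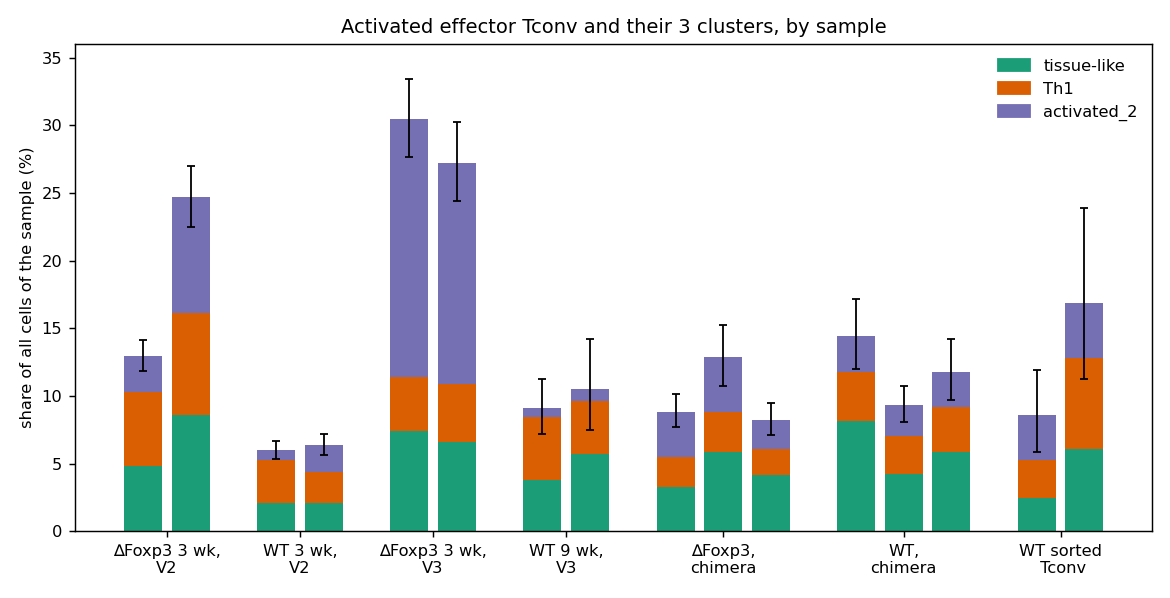
Percent of all cells of a sample in each cluster of the activated effector Tconv class, stacked, by sample; error bars are the exact 95% binomial interval of the whole class. The V3 deltaFoxp3 samples reach 30.5% and 27.2%, most of it activated_2 cells. In the chimeras the genotypes overlap, with deltaFoxp3 cells from 8.24% to 12.9% and WT cells from 9.35% to 14.5%.

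All 3 clusters were larger on average in V2 deltaFoxp3 spleens, while in V3 the difference lay mostly in activated_2 cells. Of all cells, tissue-like cells made up 6.72% ± 2.66 in V2 deltaFoxp3 samples and 2.10% ± 0.00916 in V2 WT samples, Th1 cells 6.50% ± 1.498 and 2.72% ± 0.634, and activated_2 cells 5.602% ± 4.14 and 1.36% ± 0.898 (SD, n = 2 each). In V3, activated_2 cells made up 17.7% ± 1.93 in deltaFoxp3 samples and 0.733% ± 0.168 in WT samples, while tissue-like cells made up 7.01% ± 0.544 and 4.75% ± 1.32, and Th1 cells 4.13% ± 0.196 and 4.32% ± 0.489. Within the class, activated_2 cells were 62.6% and 60% of V3 deltaFoxp3 class cells, against 6.76% and 8.11% of V3 WT class cells, which were only 5 and 3 cells. In the chimeras they were 37.6%, 31.6% and 25.7% of deltaFoxp3 class cells against 18.5%, 24.3% and 22.2% of WT class cells. These cluster shares are a description: the genes that define activated_2 differ between the groups, so its size and its content cannot be told apart.

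The activated_2 cells of V3 deltaFoxp3 mice differed from those of the chimeras, the only other V3 groups with enough of these cells. Ccr7 stood at 8.66 ± 4.36 CPM in V3 deltaFoxp3 samples (SD, n = 2), against 238 CPM in deltaFoxp3 and 249 CPM in WT cells of the chimeras, and Igfbp4 at 12.2 CPM against 223 and 171 CPM. S100a4 ran the other way, at 3839 ± 32.3 CPM in V3 deltaFoxp3 samples against 64.1 CPM in deltaFoxp3 and 157 CPM in WT cells of the chimeras. Ccl5 averaged 5136 CPM, against 28.9 and 41.8 CPM, and Gzmb, the cytotoxic protease granzyme B, 394 CPM, against 1.35 and 0 CPM. The V2 groups were split in the same direction: activated_2 cells had 626 CPM of S100a4 and 142 CPM of Ccr7 in deltaFoxp3 samples, against 53.7 and 353 CPM in WT samples.

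The same samples were then fitted within activated_2 cells alone, a fit chosen after this contrast was seen and no independent support for it. In it, 1291 of 4115 genes differed between V3 deltaFoxp3 mice and deltaFoxp3 cells of the chimeras (31.4%; edgeR, adjusted p under 0.05), with 653 higher and 638 lower. Of 23 tested genes of activation and memory, 21 rose and none fell, and of 20 naive genes 18 fell and 1 rose. The same comparison within tissue-like cells alone called 954 of 5728 genes (16.7%) and within Th1 cells alone 372 of 3764 (9.88%). One cluster name thus covered cells high in resting genes in the chimeras and cells high in effector genes in intact V3 deltaFoxp3 mice.

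**Figure D2:**
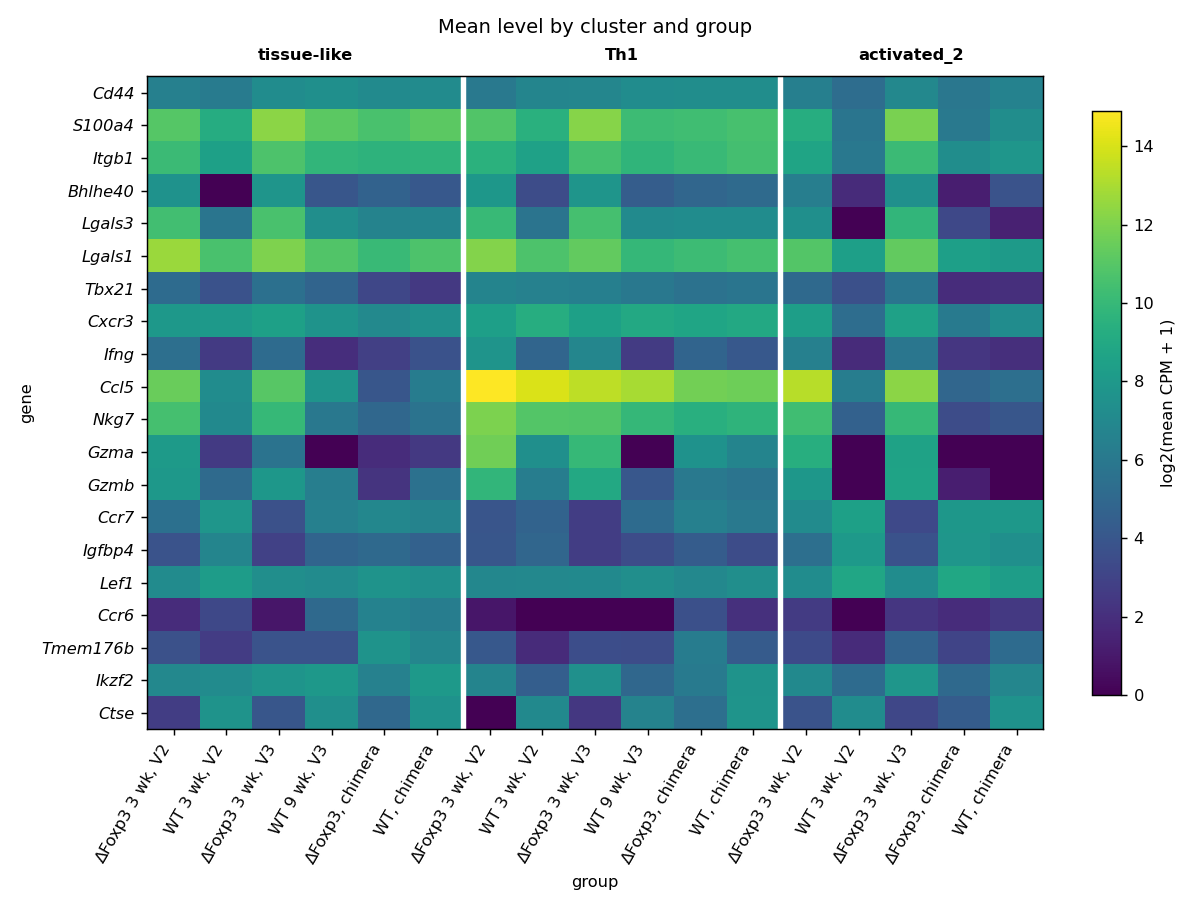
Heat map of log2(mean CPM + 1) of 20 genes, by cluster and group; a group with fewer than 20 cells of a cluster in every sample is left out, and the Th1 column of V3 WT mice is 1 sample. In the activated_2 columns, V3 deltaFoxp3 cells are high for S100a4 (3839 CPM) and low for Ccr7 (8.66 CPM), while both chimera genotypes are the reverse.

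The tissue-like cluster also changed content between groups. The Th17-related genes Ccr6 and Tmem176b differed here between intact and chimera deltaFoxp3 cells. Ccr6, the receptor for Ccl20 on Th17 cells, averaged 0.876 CPM in V3 deltaFoxp3 samples and 33.1 CPM in V3 WT samples, and 95.8 and 77.2 CPM in deltaFoxp3 and WT cells of chimeras. Tmem176b had 12.9 CPM in V3 deltaFoxp3 and 13.3 CPM in V3 WT samples, against 198 and 112 CPM in deltaFoxp3 and WT cells of chimeras, where the WT samples spread from 14.7 to 208 CPM. Lgals3, the carbohydrate-binding protein galectin-3, ran the other way with 1569 and 161 CPM in V3 deltaFoxp3 and WT samples, and 99.5 and 103 CPM in deltaFoxp3 and WT cells of chimeras. Within tissue-like cells alone, the difference between V3 deltaFoxp3 mice and deltaFoxp3 cells of chimeras was -6.27 for Ccr6 (SE 0.65, adjusted p = 5.35e-09), -3.89 for Tmem176b (SE 0.51, adjusted p = 4.95e-07) and 4.02 for Lgals3 (SE 0.21, adjusted p = 8.8e-16). Of 6 Th17 genes tested there, 5 were lower in intact mice and 1 higher.

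At 3 weeks in the V2 chemistry, the class as a whole gained effector genes and lost resting genes in deltaFoxp3 mice. Of 6858 tested genes, 500 rose and 407 fell in deltaFoxp3 samples (13.2% called in all; 7.29% higher and 5.93% lower; adjusted p under 0.05). The count of 907 fell to 422 without WT sample B and to 226 with DESeq2. Of 25 activation and memory genes 18 rose and 1, Itga4, fell, with a median log2 fold change of 1.01 against -0.02 over all genes. Of 19 naive genes 14 fell and none rose, with a median of -1.10.

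Among the class markers, Bhlhe40 had 166 and 195 CPM in V2 deltaFoxp3 samples A and B, against 9.24 and 2.56 CPM in WT samples A and B (log2 fold change 4.83, SE 0.28, adjusted p = 3.59e-08). S100a4 had 1669 and 1496 CPM in deltaFoxp3 samples against 592 and 485 CPM in WT samples, and rose by 1.57. Cd44, in contrast, had 74.3 and 83.0 CPM in deltaFoxp3 and 75.0 and 89.5 CPM in WT samples, which overlap. Lgals3 had 933 and 906 CPM in deltaFoxp3 samples against 40.1 and 46.0 CPM in WT samples (4.43, SE 0.14, adjusted p = 3.63e-11). The groups of these last genes did not overlap, apart from Cd44, as was the case for 56.4% of all tested genes. Lgals1, a second galectin, rose by 1.73 and the intermediate filament gene Vim by 1.61.

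Cytotoxic and chemokine genes rose with them. Of 12 cytotoxic genes 8 rose and 1, Gzmm, fell. Gzmb had 476 and 493 CPM in deltaFoxp3 samples against 50.3 and 44.8 CPM in WT samples (3.35, SE 0.14, adjusted p = 1.87e-09), and Gzma, a second granzyme, 1906 and 1108 CPM against 108 and 60.1 CPM. All 4 tested chemokine genes rose. Ccl4, a chemokine that attracts monocytes and T cells, had 185 and 243 CPM in deltaFoxp3 samples against 1.03 and 1.28 CPM in WT samples, which is 2 UMIs in all, a ratio of 184 with a 95% counting interval of 50.7 to 1520. Ccl5 was already abundant, at 13610 and 16540 CPM in deltaFoxp3 and 10470 and 6195 CPM in WT samples, and rose by 0.87 (SE 0.16, adjusted p = 0.00194), a call that DESeq2 did not make. Beside these genes stands Cd8a of CD8 T cells, with 39.6 and 41.5 CPM in deltaFoxp3 samples and 5.14 and 0 CPM in WT samples. The summed level of the 7 CD8 T and NK cell markers was 68.0 to 77.2 CPM against 39.6 to 50.3 CPM; Gzma and Gzmb also rose without the cells that held a marker of another type.

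Of 10 Th1 genes, Ifng and the IL-18 receptor chains Il18r1 and Il18rap rose and none fell. Ifng had 138 and 104 CPM in deltaFoxp3 samples and 13.4 and 16.6 CPM in WT samples (3.05, SE 0.24, adjusted p = 7.84e-07). Csf1, the macrophage growth factor, had 34.0 and 39.6 CPM in deltaFoxp3 samples and no UMI in either WT sample, a level at least 21.3-fold higher when WT is set to 3 counts over the group. Of 12 interferon-γ inducible GTPases, which act against intracellular microbes, 5 rose (Iigp1, Irgm1, Igtp, Gbp2 and Gbp6) and none fell; Igtp had 217 and 233 CPM in deltaFoxp3 samples against 102 and 88.2 CPM in WT samples.

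Receptors moved both ways. Of 11 inhibitory receptors 5 rose and Btla fell, with Lag3, which binds MHC class II, at 141 and 150 CPM in deltaFoxp3 samples against 8.22 and 11.5 CPM in WT samples (3.90, SE 0.23, adjusted p = 3.59e-08). Of 11 costimulatory genes 6 rose, among them Tnfrsf4 (1.77), and 3 fell, Cd27, Cd28 and Cd40lg. Cd28, the classical costimulatory receptor, had 244 and 230 CPM in deltaFoxp3 samples and 486 and 492 CPM in WT samples, and fell by 1.03. Cish, a feedback gene induced by cytokines such as IL-2, rose by 2.96 to 66.5 and 85.9 CPM in deltaFoxp3 samples, against 11.3 and 7.67 CPM in WT samples. The protease gene Ctse gave the steepest fall by the rule for named genes, with 4.25 and 6.76 CPM in deltaFoxp3 samples against 171 and 160 CPM in WT samples (-4.92, SE 0.24, adjusted p = 4.07e-09). Of 8 heat shock genes 5 fell, among them Hsp90aa1 (-1.06).

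The clusters were also fitted one at a time. Taken alone, tissue-like cells gave 401 called genes of 4215 (9.51%), Th1 cells 457 of 4599 (9.94%) and activated_2 cells 145 of 3120 (4.65%). Of the activation genes 18 of 23 rose in tissue-like cells, 14 of 23 in Th1 cells, where 1 fell, and 15 of 21 in activated_2 cells. Of the naive genes 13 of 18, 7 of 15 and 5 of 18 fell in the same 3 clusters and none rose. Immediate early genes, of which 3 of 8 rose in the whole class, had no call among 6 in tissue-like cells. In tissue-like cells Bhlhe40 had 193 CPM in deltaFoxp3 samples against 0 CPM in WT samples, and Lgals3 1330 against 54.9 CPM. In Th1 cells, Ccl5 averaged 30590 ± 3334 CPM in deltaFoxp3 samples and 17170 ± 3022 CPM in WT samples (SD, n = 2 each), and Gzma 3278 ± 966 against 170 ± 36.3 CPM.

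**Figure D3:**
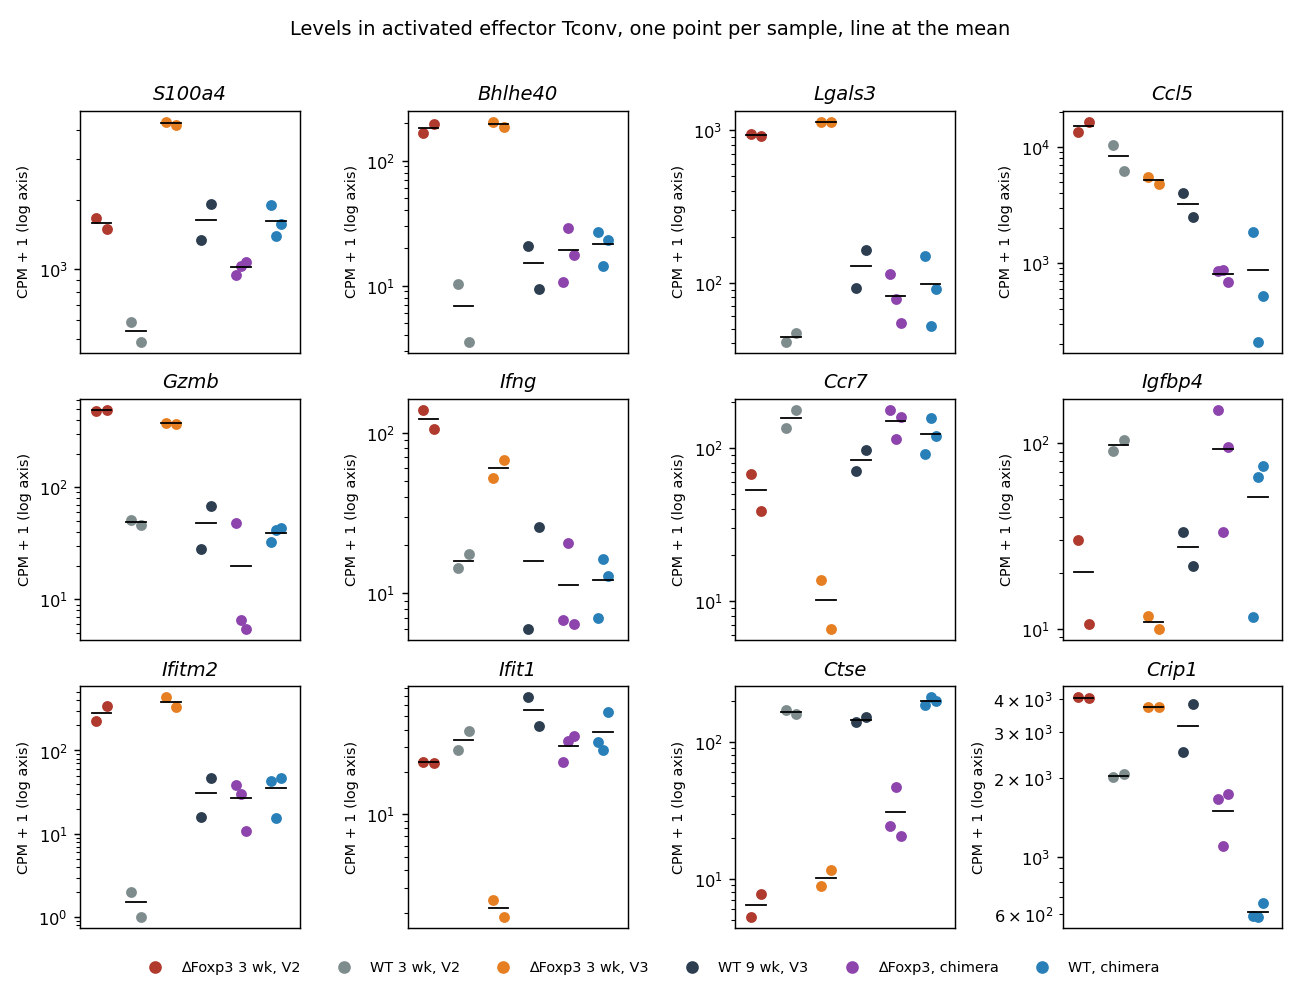
CPM + 1 on a log axis of 12 genes in the whole class, each point 1 sample, by group. Lgals3, Bhlhe40 and Gzmb separate intact deltaFoxp3 mice (Lgals3 906 to 1132 CPM) from every other group, whereas Ctse is low in all 3 deltaFoxp3 groups, chimeras included (19.7 to 46.2 CPM).

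In the V3 chemistry the comparison of deltaFoxp3 mice of 3 weeks with WT mice of 9 weeks called 391 genes higher and 342 lower of 7758 (9.45% in all; 5.04% higher, 4.41% lower). The cluster mix of the class differed too. Activated_2 and Th1 cells averaged 61.3% and 14.4% of deltaFoxp3 class cells, against 7.43% and 44.6% of WT class cells. What this mix adds to the changes of the whole class was not tested. The V3 comparison shares no sample with the V2 comparison. Over the 6689 genes tested in both, 197 rose in both, which is 40.6% of those that rose in V2 and 52.4% of those that rose in V3, and 162 fell in both, 41.1% and 51.6%; 5.62% of these genes rose and 4.69% fell in V3. Of the 3 opposite calls, Gbp6 rose in V2 and fell in V3, and Satb1 was among those that fell in V2 and rose in V3.

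The shared core held the activation genes. Of 25 activation and memory genes 13 rose and none fell in V3 (median 0.67), and of 20 naive genes 11 fell and 1, Satb1, rose (median log2 fold change -1.40, against -0.00 over all genes). Lgals3 had 1132 and 1130 CPM in V3 deltaFoxp3 samples against 91.9 and 163 CPM in WT samples (3.26, SE 0.26, adjusted p = 4.19e-10). S100a4 had 4352 and 4201 CPM against 1333 and 1917 CPM (1.44), and Bhlhe40 204 and 185 CPM against 19.9 and 8.33 CPM (3.65). Ccr7 had 12.7 and 5.52 CPM in deltaFoxp3 samples and 69.5 and 95.8 CPM in WT samples (-3.12, SE 0.42, adjusted p = 5.87e-06). Cd44 overlapped between the groups again, at 143 and 115 CPM in deltaFoxp3 samples and 159 and 142 CPM in WT samples (-0.22, adjusted p = 0.531).

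Of 10 Th1 genes 5 rose and none fell, among them Ifng, Il18r1, Il18rap and Hopx. Il18r1, which pairs with Il18rap to receive IL-18, had 470 and 404 CPM in V3 deltaFoxp3 samples against 176 and 129 CPM in WT samples (1.49, SE 0.19, adjusted p = 2.74e-06). Of 13 interferon-γ inducible GTPases none rose and Gbp6 fell (median -0.19), whereas in V2 5 of 12 rose. Of 10 cytotoxic genes 5 rose. Beside them, Cd8a had 11.3 and 20.8 CPM in deltaFoxp3 samples and no UMI in WT samples, at least 3.51-fold higher, and the 7 CD8 T and NK cell markers summed to 45.0 and 62.4 CPM in deltaFoxp3 samples against 24.8 and 33.3 CPM in WT samples. Gzmb had 377 and 365 CPM in deltaFoxp3 samples against 27.3 and 66.7 CPM in WT samples (3.15, SE 0.38, adjusted p = 1.11e-06), and Nkg7, a granule membrane protein, 1073 and 1154 CPM against 469 and 421 CPM (1.33). Ccl5 was not called here, with 5484 and 4850 CPM in deltaFoxp3 samples and 3980 and 2521 CPM in WT samples (0.68, SE 0.40, adjusted p = 0.329). It was called when only these 2 groups were fitted. Th1 cells, the cluster richest in Ccl5, made up a smaller part of the class in deltaFoxp3 than in WT samples. Taken alone, they gave 187 called genes of 3764 (4.97%), with 14 cells in WT sample 2. Tissue-like cells alone gave 403 called genes of 5728 (7.04%), and Ccl5 was among them, at 2122 ± 568 CPM in deltaFoxp3 samples and 207 ± 59.8 CPM in WT samples (SD, n = 2 each; log2 fold change 3.44).

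Several losses were nearly complete. Il6ra, the IL-6 receptor chain, had 2.94 and 2.55 CPM in V3 deltaFoxp3 samples against 64.6 and 113 CPM in WT samples (-4.85, SE 0.41, adjusted p = 1.39e-09). Ccr10, a receptor for skin and mucosal chemokines, had 0 and 0.425 CPM, 1 UMI in all, against 47.2 and 41.7 CPM, a level lower by a ratio of 198 with a counting interval of 32.9 to 8110. Of 11 mitochondrially encoded genes 7 fell, with mt-Cytb at 3602 and 3500 CPM in deltaFoxp3 samples against 7409 and 7604 CPM in WT samples (-1.05); the median percent of mitochondrial UMIs per class cell was 5.07 and 4.92 against 7.09 and 7.27. Of 14 glycolysis genes 3 rose, Tpi1, Gapdh and Pkm, and none fell. Cd28 and Cd27 fell here too (-0.87 and -0.89), but unlike in V2 none of the 11 costimulatory genes rose.

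The V3 WT class held 74 and 37 cells, and this comparison rested on them more than any other. Without WT sample 1 it called 192 genes, against 733. DESeq2 did not call Gzmb or Gzma, and the call of Itgb1 (0.56) was lost without WT sample 1 or deltaFoxp3 sample 1.

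Genes of the type I interferon response were split in both intact comparisons. The classical promoter element of these genes is called ISRE, and that of interferon-γ is called GAS. The split is not strict, and a promoter can hold the letters of both. In V2, 7 of 21 rose and 7 fell in deltaFoxp3 samples (median 0.10), and in V3 4 of 22 rose and 10 fell (median -0.75). The Ifitm genes, whose membrane proteins block virus entry, rose in both: Ifitm1 had 237 and 207 CPM in V2 deltaFoxp3 samples and no UMI in V2 WT samples, at least 131-fold higher, and 188 and 124 CPM in V3 deltaFoxp3 samples against 4.97 and 8.33 CPM in V3 WT samples (4.63, SE 0.70, adjusted p = 3.39e-05). Ifitm2 had 432 and 330 CPM in V3 deltaFoxp3 samples against 14.9 and 45.8 CPM in V3 WT samples (3.85). The fall was led by Ifit1, an RNA-binding antiviral protein, at 1.47 and 0.849 CPM in V3 deltaFoxp3 samples against 67.0 and 41.7 CPM in V3 WT samples (-5.48, SE 0.53, adjusted p = 1.94e-08). Ifi27l2a, the most abundant of the list, had 475 and 540 CPM in V3 deltaFoxp3 samples against 2297 and 3192 CPM in V3 WT samples, and fell by 2.40.

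The promoters of 5 of these genes, from RefSeq on GRCm38.p6, picked for a contrast in their calls, are printed as examples of genes that rose (Ifitm) and fell (Ifit1 and Isg15) in V3. Each line gives the 120 bases before the gene start, 5′ to 3′ in the direction of the gene, and capitals mark matches to the ISRE letters GAAANNGAAA on either strand.
Ifitm1 (chr7:140967956-140968075, plus strand): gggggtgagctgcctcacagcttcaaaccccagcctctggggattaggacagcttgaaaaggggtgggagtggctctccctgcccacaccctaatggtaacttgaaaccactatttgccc
Ifitm2 (chr7:140955962-140956081, minus strand): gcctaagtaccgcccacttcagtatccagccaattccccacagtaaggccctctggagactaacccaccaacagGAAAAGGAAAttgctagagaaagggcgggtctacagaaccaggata
Ifitm3 (chr7:141010745-141010864, minus strand): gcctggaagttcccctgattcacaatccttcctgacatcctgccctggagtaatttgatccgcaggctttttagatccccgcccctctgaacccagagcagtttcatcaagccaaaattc
Ifit1 (chr19:34640769-34640888, plus strand): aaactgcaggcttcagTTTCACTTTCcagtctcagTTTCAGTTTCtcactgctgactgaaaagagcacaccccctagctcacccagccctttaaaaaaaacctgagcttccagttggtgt
Isg15 (chr4:156200819-156200938, minus strand): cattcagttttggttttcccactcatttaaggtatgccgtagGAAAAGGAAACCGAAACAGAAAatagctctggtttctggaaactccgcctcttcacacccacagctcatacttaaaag
In V3, 6 of 7 genes of the list that fell and have a promoter here hold a match (Xaf1 holds none), and so does 1 of 4 that rose. Ifit1 holds 2 matches and Isg15 3 that overlap, Ifitm2 holds 1, and Ifitm1 and Ifitm3 hold none in the 250 bases searched. A match occurs in 978 of the 32851 promoters known to RefSeq here (2.98%). It occurs in 10 of 22 promoters of the type I list (45.5%) and 9 of 10 of the interferon-γ inducible GTPases. Counted by gene, these are 10 of 17 (58.8%) and 9 of 9. The 17 include Ifi214, which is absent from the counts. The GAS letters TTCNNNGAA occur in 7.02% of all promoters, in 3 of the 22 and in 6 of the 10. A match describes letters and not a bound site.

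**Figure D4:**
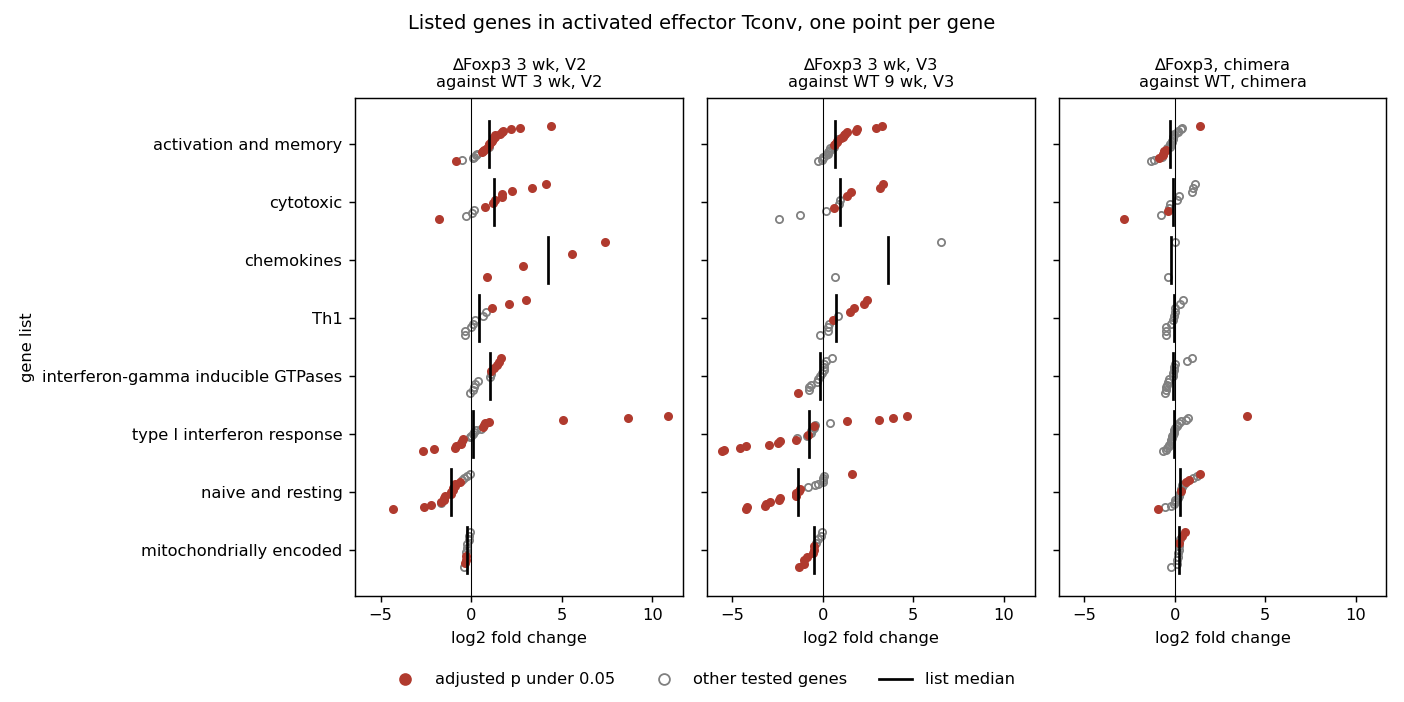
Log2 fold change of each tested gene of 8 lists in the 3 comparisons of deltaFoxp3 with WT; filled points passed an adjusted p of 0.05 and the bar is the list's median. Activation genes sit above 0 and naive genes below it in both intact comparisons (medians 1.01 and -1.10 in V2), and both lie near 0 in the chimeras (-0.26 and 0.32).

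In the chimeras, where cells of both genotypes shared a host with WT Treg cells, 94 of 7758 genes rose and 53 fell in deltaFoxp3 cells (1.89% called; 1.21% higher, 0.683% lower). Ribosomal protein genes, whose reads can be shared with near-identical copies, made up 65 of the 94 that rose and none of the 53 that fell. Without deltaFoxp3 sample 1 the comparison called 57 genes, and between 72 and 88 without deltaFoxp3 sample 3, WT sample 1 or WT sample 3. Of 25 activation and memory genes 1, Crip1, rose and 6 fell (S100a6, S100a10, Lgals1, Anxa2, Vim and Glrx; median -0.26), and none of 10 Th1 genes or 13 interferon-γ inducible GTPases was called (with the host as a block, Hopx of the Th1 list was called lower, at -0.48). S100a4 had 946, 1027 and 1077 CPM in deltaFoxp3 cells of chimeras 1, 2 and 3 against 1890, 1395 and 1572 CPM in WT cells, and fell by 0.56 (SE 0.10, adjusted p = 0.00171). Over the whole class the sign is the reverse of that in intact mice, where S100a4 rose. Activated_2 cells, led by resting genes and low in S100a4 in the chimeras, averaged 31.6% of deltaFoxp3 and 21.7% of WT class cells. What this difference in cluster mix adds to the fold changes of the whole class was not tested.

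The smallest p belonged to Ctse, at 23.4, 46.2 and 19.7 CPM in deltaFoxp3 cells against 183, 210 and 199 CPM in WT cells (-2.69, SE 0.19, adjusted p = 2.44e-10). Crip1, a small LIM-domain protein, had 1664, 1098 and 1738 CPM in deltaFoxp3 cells against 591, 584 and 663 CPM in WT cells (1.40, SE 0.13, adjusted p = 6.45e-08). The Rosa26 transcript Gt(ROSA)26Sor, from the locus where the mutant line carries its reporter, had 19.5, 32.2 and 23.0 CPM in deltaFoxp3 cells against 56.0, 55.3 and 44.2 CPM in WT cells. For each of these 3 genes the genotypes did not overlap, as for 17.0% of all tested genes, and Ctse and Gt(ROSA)26Sor also fell in both intact comparisons.

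Genes known from Treg cells were among those that fell. Ikzf2 (Helios), a transcription factor of Treg cells, had 34.1, 129 and 40.6 CPM in deltaFoxp3 cells against 239, 251 and 163 CPM in WT cells (-1.70, SE 0.30, adjusted p = 0.00171; not called by DESeq2). Of 6 tested genes of the Treg list, Ikzf2, Capg and Swap70 fell, and of the receptors Ctla4, Nrp1, Tnfrsf4, Tnfrsf9 and Tnfrsf18. Klrg1, an inhibitory receptor of terminal effector cells, had 0, 2.80 and 15.4 CPM in deltaFoxp3 cells against 65.1, 33.2 and 40.8 CPM in WT cells (-2.78, SE 0.50, adjusted p = 0.00187), and the integrin Itgae (CD103) 3.90, 7.00 and 8.78 CPM against 39.4, 33.2 and 17.0 CPM (-2.12). Beside these results, a GFP UMI, which reports Foxp3 transcription in WT cells, was seen in 2.12% to 5.13% of deltaFoxp3 class cells and 12.1% to 16.7% of WT class cells of the chimeras (resting Tconv cells 0.960% to 3.23% and 1.60% to 4.85%), and Foxp3 had 2, 2 and 1 UMIs against 7, 6 and 5. Whether cells with Foxp3 transcription inside the WT class carry these genes was not tested. Ctla4 and Tnfrsf4 each lost their call when deltaFoxp3 sample 1 or 3 or WT sample 2 was left out, and Ctla4 also without WT sample 1 and Tnfrsf4 without WT sample 3.

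The naive list moved little and upwards: Il7r, Satb1, Dapl1 and Npm1 rose and Cd55 fell, of 20 (median 0.32). Satb1 had 213, 125 and 213 CPM in deltaFoxp3 cells and 123, 123 and 104 CPM in WT cells (0.77), a call lost without deltaFoxp3 sample 1 or 3 or WT sample 3. Ccl5 was not called, with 857, 872 and 686 CPM in deltaFoxp3 cells and 1870, 210 and 522 CPM in WT cells; without the WT cells of chimera 1 the difference was 1.30 and was called. Of the type I interferon list only Ifitm1 was called (4.00, SE 0.82, adjusted p = 0.00563), with 60.5, 12.6 and 8.78 CPM in deltaFoxp3 cells against 4.54, 1.11 and 0 CPM in WT cells, and not without deltaFoxp3 sample 1 or WT sample 3, and with the opposite sign in tissue-like cells alone (-3.10, not called). Taken alone, tissue-like cells gave 84 called genes of 5728 (1.47%), Th1 cells 8 of 3764 (0.213%) and activated_2 cells 4 of 4115 (0.0972%). Crip1 rose and Ctse and Ikzf2 fell in both of the last 2 clusters.

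Between the V2 comparison and the chimeras, which share no sample, the calls in the same direction were near the background. Of 485 genes that rose in V2 and were tested in both, 5 rose in the chimeras (1.03%, against 1.36% of all tested genes, and 5.49% of the 91 that rose there) and 19 fell, S100a4, S100a6, Anxa2, Lgals1, Vim, Tnfrsf4, Klrg1 and Ikzf2 among them. Of 394 that fell in V2, 5 fell in the chimeras (1.27%, against 0.747% of all tested genes, and 10% of the 50 that fell there) and 31 rose, most of them ribosomal protein genes. Between the V3 intact comparison and the chimeras the shared calls were 11 of 391 higher (2.81%, against 1.21% of all tested genes, and 11.7% of 94) and 10 of 341 lower (2.93%, against 0.67%, and 19.2% of 52). Opposite calls numbered 14 of the 391 and 12 of the 341.

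Set directly against each other, deltaFoxp3 cells of intact V3 mice and of chimeras gave the most called genes of the comparisons made here. Of 7758 genes 1103 were higher and 964 lower in intact mice (26.6% called; 14.2% and 12.4%). Of 25 activation genes 22 rose and Itga4 fell, of 20 naive genes 16 fell and none rose, and of 10 Th1 genes 8 rose, among them Tbx21, Ifng and Cxcr3. Gzmb had 377 and 365 CPM in intact mice against 46.8, 5.60 and 4.39 CPM in chimeras (4.13, SE 0.28, adjusted p = 3.99e-12). Ccl5 had 5484 and 4850 CPM in intact mice against 857, 872 and 686 CPM in chimeras (2.67, SE 0.36, adjusted p = 1.81e-06), and Ccr7 12.7 and 5.52 CPM against 176, 113 and 158 CPM (-4.08). None of these 3 genes overlapped, as was the case for 49.8% of all tested genes.

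Of 6 Th17 genes, 5 fell in intact mice, Ccr6, Tmem176a, Tmem176b, Aqp3 and Ahr, and the leukotriene receptor gene Ltb4r1 rose. Ccr6 had 2.94 and 2.55 CPM in intact mice and 26.3, 40.6 and 73.5 CPM in chimeras (-4.04, SE 0.47, adjusted p = 1.62e-07). Of 15 proliferation genes 8 rose, although the dividing cluster is not part of the class: Birc5, needed for chromosome segregation, had 29.4 and 74.3 CPM in intact mice against 4.88, 5.60 and 7.68 CPM in chimeras (3.09). Of 14 glycolysis genes 9 rose, among them the glucose transporter Slc2a3 by 1.60, and 8 of 11 mitochondrially encoded genes lower. The metallothionein Mt1 had 81.7 and 110 CPM against 0, 1.40 and 1.10 CPM, 2 UMIs in all, a ratio of 128 with a counting interval of 35.2 to 1060. Age, host, irradiation and the presence of WT Treg cells differ together between these groups and cannot be told apart.

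The difference between the intact V3 effect and the chimera effect was tested for each gene. It passed for 540 of 7758 genes (6.96%; 3.56% higher and 3.4% lower in the intact comparison), and for 165 without V3 WT sample 1, 331 without V3 deltaFoxp3 sample 2 and 299 with DESeq2. Of 25 activation genes 17 had the higher effect in intact mice and 1, Crip1, the lower. Of 20 naive genes 10 had the lower effect there. Th1 genes followed with 5 of 10 higher (among them Ifng, Il18r1, Il18rap and Hopx), and 8 of 22 type I interferon genes were lower against 2 higher, Ifitm2 and Ifitm3. Over the whole class, whose cluster mix differs between the groups, deltaFoxp3 samples differed from WT in opposite directions for S100a4. It rose by 1.44 in intact V3 mice and fell by 0.56 in chimeras.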

How the data were processed

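The authors deposited UMI counts per gene and cell, made with Cell Ranger 3.0.2 on mm10 per the submitters' processing notes, with a cell table that holds their clusters, a percent of mitochondrial UMIs and a Scrublet doublet score per the file headers, and a summary with the fraction of reads in cells; 40 of the 59 columns of the deposited cell table were not used. No deposited cell was called a doublet, no barcode was shared between libraries among the class cells, and the summed counts equalled the deposited UMI number in 84.1% of them (largest shortfall 42). The deposited Foxp3 count is Foxp3 plus GFP in all 14863 WT cells and Foxp3 plus Cre in all 11789 deltaFoxp3 cells. The row therefore stayed out of the counts of called list genes and out of named fold changes. It is 1 of the genes tested and is part of the summed level of the Treg list.

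Counts were summed per sample (at least 20 cells) and tested with edgeR 4.0.16 (TMM scaling, genes kept by filterByExpr at 10 counts, the quasi-likelihood test, p adjusted by Benjamini-Hochberg and called under 0.05) in R 4.3.3: the V2 groups in 1 fit, the 4 unsorted V3 groups in another. The fits within single clusters applied no minimum of cells, and V3 WT sample 2 entered the Th1 fit with 14 cells. Shares were tested as numbers of cells. DESeq2 1.42.0, scipy 1.17.1 for exact tests, and a Python 3.11.15 script for sums were also used. Genes were named by rule: the 8 highest and 8 lowest changes among called genes of at least 20 CPM whose groups did not overlap, the class markers, and up to 3 members per list by p. The members and the 29 gene lists (361 entries, 352 found by symbol, 7 by an older one) were chosen with earlier results of these data known. On simulated counts the fits called 50% of genes changed 2-fold and 85% changed 4-fold in V2, 38% and 79% in V3, 61% and 94% in the chimeras and 75% and 94% between intact and chimera deltaFoxp3 cells. Chimera numbers pair cells of 1 host, and same-numbered samples deviated together with correlations of 0.04, 0.11 and 0.02. The main fit has no block. By the deposited batch entry, deltaFoxp3 1 and 3 and WT 2 were in tube A, and deltaFoxp3 2 and WT 1 and 3 in tube B. The genotypes of a host thus never shared a tube, and low correlations cannot show that the host has no effect. With the batch entry as a covariate, the chimera comparison called 96 genes higher and 39 lower. Intervals and floors (3 counts over a group) cover counting error only.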

Additional observations from a re-analysis of the deposited data

Results flagged for a closer look

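For 16 genes the effect of the deltaFoxp3 genotype differed between intact V3 mice (3 weeks, against WT of 9 weeks) and chimeras, by the interaction term of edgeR's quasi-likelihood test over the same 10 samples; the values are log2 differences of the 2 effects. The positive ones were 5.26 for AA467197 (adjusted p = 0.0108), 5.21 for Mt1, 4.37 for 1500009L16Rik, 4.04 for Ifitm2, 3.92 for Gzmb, 3.88 for Spock2, 3.75 for Bhlhe40 and 3.62 for Qrfp. The negative ones were -5.80 for Ccr10, -5.62 for Dapl1, -5.29 for Ifit1, -4.76 for Il6ra, -3.95 for Gpm6b (adjusted p = 0.0331), -3.90 for Gt(ROSA)26Sor, -3.88 for Fam101b and -3.73 for Tdrp.

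Qrfp, the gene of a neuropeptide, had 91.5 and 86.6 CPM in V3 deltaFoxp3 samples against 9.93 and 4.17 CPM in V3 WT samples, and 12.7, 8.40 and 12.1 CPM in deltaFoxp3 cells against 9.09, 11.1 and 20.4 CPM in WT cells of the chimeras. AA467197, the host transcript of a small RNA, had 155 and 146 CPM in V3 deltaFoxp3 samples and at most 8.78 CPM in every other V3 sample compared. Dapl1 moved in opposite directions: it fell in intact mice and rose in chimeras, with 212, 164 and 63.6 CPM in deltaFoxp3 cells against 37.9, 60.8 and 81.6 CPM in WT cells, where the deltaFoxp3 cells of chimera 3 lie within the WT range. Gt(ROSA)26Sor was lower in deltaFoxp3 cells in both settings and more so in intact mice, at 1.47 and 1.27 CPM against 42.2 and 50.0 CPM. The age of the WT mice and the genotype differ together in the intact part of this difference and cannot be told apart.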

How the results depend on the processing

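Of the alternatives tried for the named genes, 5416 values kept direction and side of the threshold, 533 lost and 98 gained the call, and 8 turned sign. With the DESeq2 Wald test the called genes numbered 226 in V2, 392 in V3, 1044 between intact and chimera deltaFoxp3 cells and 299 for the difference of effects, against 907, 733, 2067 and 540; the cause was not tested. Leaving out 1 replicate gave 422 to 1009 genes in V2 (lowest without WT B), 192 to 563 in V3 (lowest without WT 1; 414 without deltaFoxp3 2 and 444 without WT 2), 57 to 161 in the chimeras (lowest without deltaFoxp3 1; 88 without deltaFoxp3 3 or WT 1, 72 without WT 3), 1174 to 2013 between intact and chimera deltaFoxp3 cells (lowest without intact 2) and 165 to 610 for the difference (lowest without WT 1; 331 without deltaFoxp3 2). For the class share these ranges were 1.07 to 2.00 in V2 (1.56 without WT A and 1.65 without WT B, no longer called), 1.46 to 1.67 in V3, -0.41 to -0.088 in the chimeras (-0.41 without deltaFoxp3 2, then called) and 1.42 to 1.75 between intact and chimera deltaFoxp3 cells. With fewer cells, tissue-like cells alone gave 401, 403, 84, 954 and 260 genes in the 5 comparisons, Th1 cells alone 457, 187, 8 and 372, and activated_2 cells alone 145 in V2, 4 in the chimeras and 1291 between intact and chimera deltaFoxp3 cells; the fits of Th1 and activated_2 cells and the one without conflicting strain entries were chosen after seeing the data. Signs turned in tissue-like cells alone for Junb (-0.18) and Ikzf2 (-0.21) in V2, Gpr183 (0.27) in V3, and Ccr10 (0.066) and Ifitm1 (-3.10) in the chimeras; in activated_2 cells alone for Rom1 (0.68) and Capg (0.011) in the chimeras; and without V3 WT 2 for Trbc1 (-1.27 to 0.074 over the left-out replicates). The share of activated_2 cells within the V2 class ranged over left-out replicates from -0.19 (without WT A; -0.06 without deltaFoxp3 B) to 1.19, and that of Th1 cells from -0.54 to 0.026 (without WT A), so neither has a stable sign. Same-numbered V2 samples share nothing in the labels but the number. Same-numbered intact V3 samples also share a batch entry in the deposited cell table, so a V3 replicate block is also a block of that entry. With a replicate block, fitted on the groups compared, the genes called were 898 in V2 and 886 in V3. Without the block, those V3 groups gave 800. The share effects with the block were 1.53 and 1.62. For the chimeras, paired by host, the block gave 144 genes, 127 of them among the 147, and a share effect of -0.26; among the named genes it ended no call and added Hopx (-0.48), Ifi27l2a (-0.42) and Ighm (-0.48). Activated_2 cells of V3 WT mice, 8 in all, were too few to fit.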

Other observations

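GFP transcripts were common in the class of intact deltaFoxp3 mice. At least 1 was present in 35.1% and 42.4% of V3 deltaFoxp3 class cells against 2.70% and 13.5% of V3 WT class cells, and in 23.2% and 21.1% of V2 deltaFoxp3 against 4.11% and 6.83% of V2 WT class cells. Resting Tconv cells of the V3 deltaFoxp3 samples had it at nearly the same rate, 35.7% and 31.7%, against 0.456% and 1.98% in V3 WT samples, while resting cells of V2 deltaFoxp3 samples had 6.75% and 8.35%, against 1.16% and 1.37% in V2 WT samples. Resting cells of other samples with the same batch entry as the first V3 deltaFoxp3 sample had 0.456% to 1.60%. Those with the batch entry of the second had 1.85% to 4.85%. What gave these UMIs was not tested.

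Sorted WT Tconv cells of 9 weeks held 31 and 25 class cells, 8.56% and 16.9% of their samples. Their class was spread over the clusters, with 29.0% and 36% tissue-like, 38.7% and 24% activated_2 and 32.3% and 40% Th1 cells, whereas unsorted WT mice of the same age had 6.76% and 8.11% activated_2 cells. Ctse in these sorted cells had 137 and 108 CPM, above every deltaFoxp3 sample (4.25 to 46.2 CPM).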
